A study of Mus musculus with 10 samples.

Results

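Glypicans and syndecans are the main families of cell surface proteoglycans that carry heparan sulfate, a long sulfated sugar chain. The 8 genes described here are the glypicans Gpc1, Gpc3, Gpc4 and Gpc6 and the syndecans Sdc1, Sdc2, Sdc3 and Sdc4, taken by gene name from a table of 19414 genes. They were selected on being present in that table, that is, on having expression values in these livers, and they were proposed with results of the diet comparison known. The data are poly-A selected RNA sequencing of liver from 10 female HET3 mice, a genetically heterogeneous stock, labelled 25 months old. Of these, 5 mice were fed the Longevity diet and 5 a standard diet, each for 5 months, and the title of the series calls the Longevity diet methionine-supplemented. Each mouse is 1 library, named by its diet (LD for the Longevity diet, SD for the standard diet) and its number.

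Glypicans are tied to the outer face of the membrane by a lipid anchor, whereas syndecans span the membrane and end in a short cytoplasmic tail. Through their chains both bind growth factors, morphogens such as hedgehog and Wnt proteins, proteases, lipases and lipoproteins, and they bring these to their receptors or hold them at the surface. In mouse liver, heparan sulfate on hepatocytes takes part in clearing triglyceride-rich lipoprotein remnants from blood, and Sdc1 is known as a main carrier of those chains.

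The chains are built on serines that are followed by glycine, often near acidic residues. The coding stretches below hold such pairs in the glypican whose level differed most between the diets, in a glypican that did not pass the test and in the 2 syndecans with the highest levels. They are shown because the pairs are what these proteins share as carriers of the chain. Each is 17 codons long, read 5′ to 3′ from GENCODE M21 transcripts (GRCm38), with the codons of serine-glycine pairs in capitals.
Gpc1: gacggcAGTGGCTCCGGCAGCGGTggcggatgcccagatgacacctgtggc
Gpc4: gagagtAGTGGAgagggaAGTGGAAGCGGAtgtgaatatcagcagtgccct
Sdc1: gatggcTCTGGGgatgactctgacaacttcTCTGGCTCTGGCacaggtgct
Sdc4: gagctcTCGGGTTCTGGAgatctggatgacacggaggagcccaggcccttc

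The windows start at codon 483 of 557 in Gpc1 and codon 492 of 557 in Gpc4, near the anchored end of the protein. In the syndecans they start at codon 35 of 311 in Sdc1 and codon 60 of 198 in Sdc4, towards the outer tip. Over the whole coding sequence a script counted 6 serine-glycine pairs in Gpc1, 2 in Gpc3, 4 in Gpc4, 5 in Gpc6, 5 in Sdc1, 3 in Sdc2, 8 in Sdc3 and 3 in Sdc4. Such a pair is a description of the sequence and not a proven chain site.

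The syndecans also share the end of their tail, which binds PDZ-domain proteins such as syntenin. The last 10 codons before the stop are shown with the final 4 in capitals, because these 4 encode the same residues in all 4 syndecans.
Sdc1: aaacccaccaagcaggagGAGTTCTACGCC
Sdc2: cagaaggcacccactaagGAGTTTTATGCA
Sdc3: aaacctgacaagcaggagGAGTTCTACGCT
Sdc4: aaaaaagcccccaccaatGAGTTCTACGCA
Of the 10 residues, Sdc1 and Sdc3 share 9, and Sdc2 and Sdc4 share 8. The other pairings share 4 or 5.

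The unit is CPM (a gene's reads per 1000000 assigned to genes of the table), after removal of the 0.0001 that the authors had added to every value. The estimated depth was 24.7 to 39.0 M reads (M, 1000000) per library on the Longevity diet and 36.0 to 45.7 M on the standard diet (exact permutation p = 0.0159, two-sided), so the Longevity diet libraries were the shallower ones. The 11 hepatocyte markers found of 12 listed summed to 155200 to 208800 CPM on the Longevity diet and 110200 to 153600 CPM on the standard diet, so the labelled tissue carried its markers in every library.

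On the Longevity diet 1 of the 8 members changed. Gpc1, a glypican known to bind fibroblast growth factors, was 8.57-fold higher, and it was the sole member whose diets did not overlap. Sdc1, Sdc2, Sdc3, Sdc4 and Gpc4 were tested and did not pass, with log2 differences of -0.45 to -0.13. Gpc3 and Gpc6 were too low for the test. The verbs rose, fell and changed are kept for genes whose limma p, adjusted over the 13157 genes that averaged 1 CPM or more, was under 0.05. By that rule 1.89% of all genes changed, 0.661% of them upwards and 1.23% downwards, and the diets did not overlap for 5.50% of genes. Among the 6 members tested, 1 changed and 1 did not overlap, and these counts are given as a description since the members were proposed with results known. The median log2 change of the 6 was -0.34, beside -0.11 over all genes tested, and 5 of the 6 were negative, where 39.6% of all genes were positive. Scaling by median-of-ratios moved the median of all genes by 0.110 and turned the split of changed genes from 87 higher and 162 lower into 154 higher and 134 lower. Quantile normalization shifted it by 0.114 and gave 151 higher and 148 lower. Both left the sign of each of the 6 members as it was, but not the size. The log2 difference of Sdc2 was -0.13 as reported, -0.02 with median-of-ratios and -0.17 with quantile normalization. For Sdc4 it was -0.23, -0.12 and -0.22 in the same order. In bulk tissue, fewer cells of a type and less RNA per cell cannot be told apart.

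**Figure D1:**
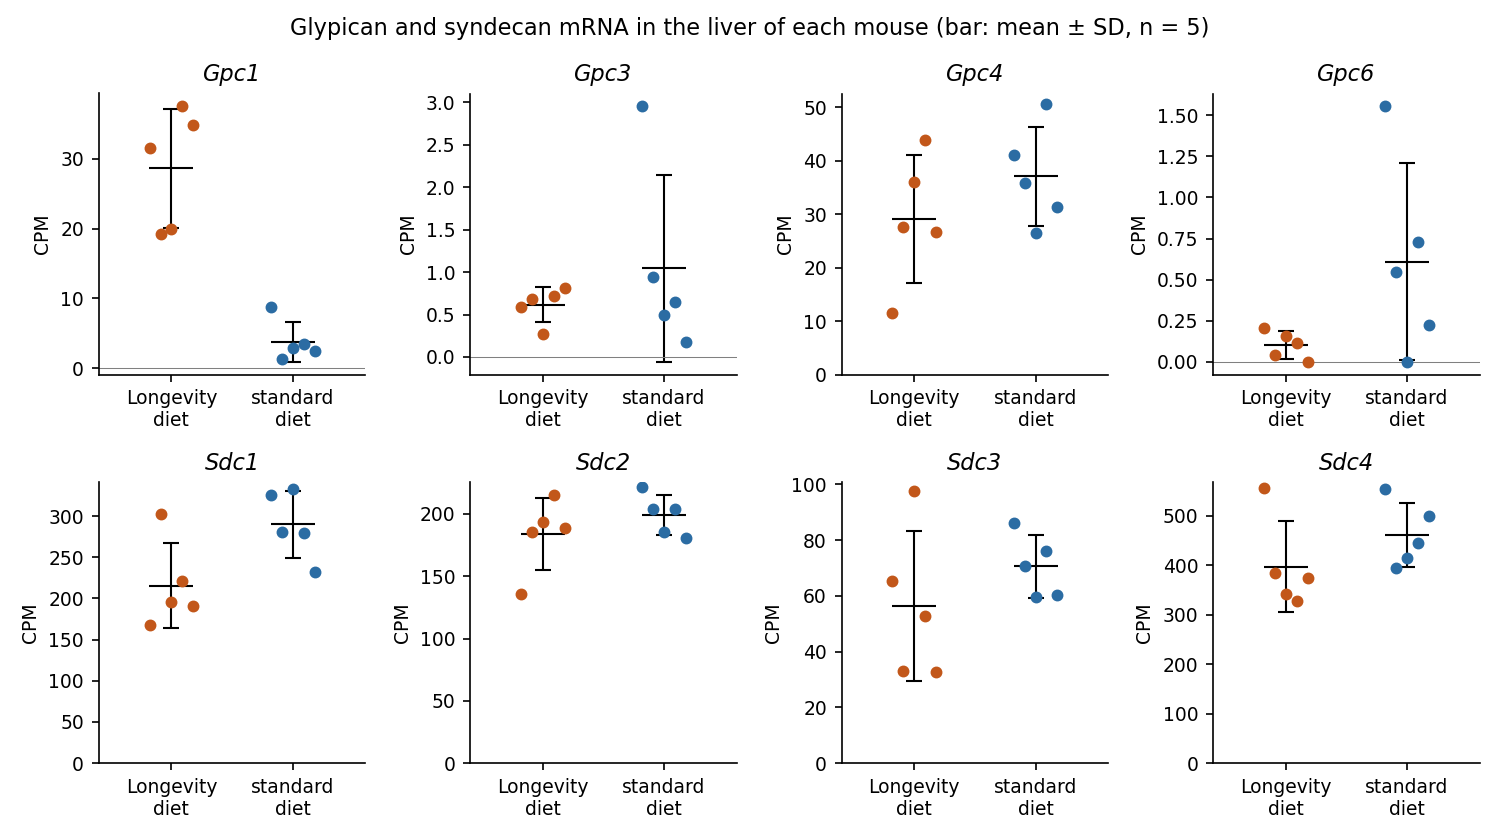
CPM (y axis) of the 8 members in each mouse, Longevity diet on the left of each panel and standard diet on the right, with the mean ± SD of 5 mice as bars. The diets are apart for Gpc1 (19.3 to 37.5 CPM against 1.38 to 8.71 CPM) and overlap in the other 7 panels.

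Gpc1 (ENSMUSG00000034220.8, chromosome 1 from 92759367 to 92788501 on mm39, plus strand) had 31.5 CPM in LD_405, 19.3 in LD_406, 19.9 in LD_442, 37.5 in LD_513 and 34.8 in LD_515. The standard diet values were 8.71 CPM in SD_403, 1.38 in SD_500, 2.89 in SD_501, 3.45 in SD_502 and 2.41 in SD_646. Every mouse on the Longevity diet was above every mouse on the standard diet, and SD_403 stood above the other 4 standard diet mice. The mean was 28.6 ± 8.51 CPM on the Longevity diet and 3.77 ± 2.87 CPM on the standard diet (SD, n = 5 each). On the log2 scale Gpc1 rose by 3.10 with an SE of 0.40 (95% CI 2.24 to 3.96; limma adjusted p = 0.00350), and the interval corresponds to 4.73-fold to 15.5-fold. The exact two-sided permutation p was 0.00794, the smallest that 5 against 5 mice can give.

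These values rest on an estimated 476 to 1295 reads per Longevity diet library and 63 to 398 per standard diet library. By p-value Gpc1 was number 9 of the 13157 genes, and 14 genes had a larger log2 rise. The call held in each of 17 alternative settings, with log2 changes of 2.75 to 3.46 and adjusted p of 0.00108 to 0.0131, and its log2 change was 3.46 without SD_403 and 3.05 without LD_405. The strand setting of the counting is not given, and the one listed gene that overlaps Gpc1 on the genome, Ankmy1 on the opposite strand, averaged 0.0680 ± 0.0550 CPM on the Longevity diet and 0.101 ± 0.139 CPM on the standard diet. SD_403 was also the standard diet mouse with the highest sums of neutrophil markers (138 CPM) and of plasma cell and B cell markers (1171 CPM). SD_646, however, had 108 CPM of neutrophil markers with 2.41 CPM of Gpc1. The part of those cells in the Gpc1 level of SD_403 was not tested.

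**Figure D2:**
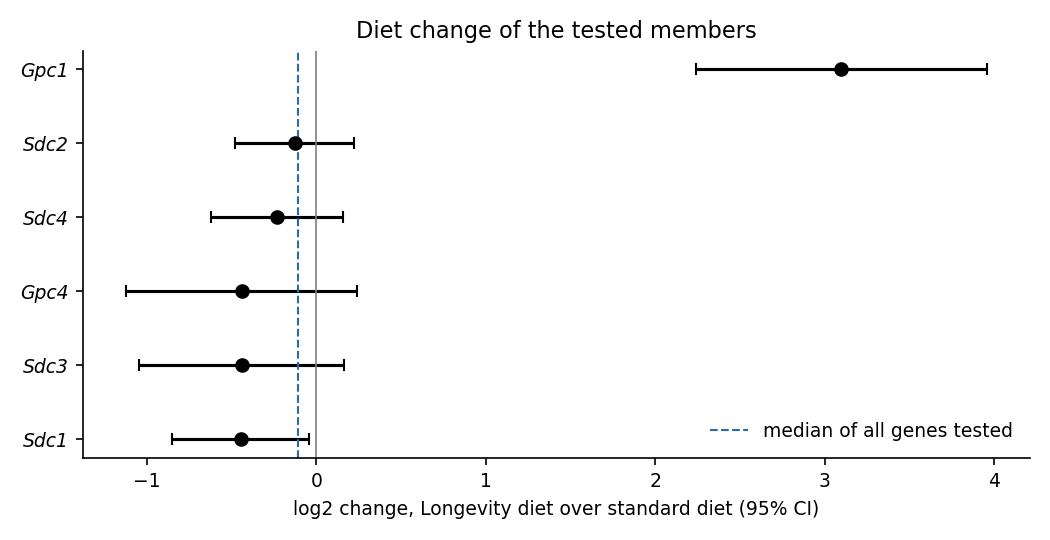
Log2 change, Longevity diet over standard diet (x axis), of the 6 tested members with 95% confidence intervals from limma; the dashed line is the median of all genes tested (-0.11). Gpc1 lies at 3.10, and the intervals of the other 5 lie within -1.12 to 0.24.

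The other glypican at a measurable level was Gpc4, whose released form is known to circulate and to bind the insulin receptor. Gpc4 (chromosome X from 51141898 to 51254129, minus strand) had 11.5 CPM in LD_405, 27.6 in LD_406, 36.0 in LD_442, 43.8 in LD_513 and 26.7 in LD_515. On the standard diet it had 41.1 CPM in SD_403, 35.8 in SD_500, 26.4 in SD_501, 50.6 in SD_502 and 31.4 in SD_646. LD_405 was the lowest of all 10 mice, and the other 4 on the Longevity diet lay among the standard diet values. The log2 difference was -0.44 (95% CI -1.12 to 0.24, adjusted p = 0.496), and it was -0.14 without LD_405 (adjusted p = 0.770). For Gpc1, by contrast, LD_405 was the third highest of its diet.

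Gpc3 and Gpc6 averaged under 1 CPM over the 10 mice and were not tested in the fit reported here. Gpc3 (chromosome X from 51361303 to 51702827), a glypican of fetal liver and of human liver cancer that restrains hedgehog signalling, lies beside Gpc4 on the X chromosome. It had 0.275 to 0.808 CPM on the Longevity diet and 0.177 to 2.96 CPM on the standard diet, where SD_403 was highest and the others had at most 0.942 CPM. Gpc6 (chromosome 14 from 117162727 to 118213956), known in mouse for hedgehog signalling in the growth plate, had 0.205 CPM in LD_405, 0.0404 in LD_406, 0.157 in LD_442 and 0.116 in LD_513, and was listed at 0 in LD_515. On the standard diet Gpc6 had 1.55 CPM in SD_403, 0.548 in SD_500, 0.726 in SD_502 and 0.222 in SD_646, and was listed at 0 in SD_501.

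At these levels Gpc6 stands for 0 to 8 estimated reads per Longevity diet library and 0 to 71 per standard diet library. A value of 0 does not exclude a low level. The floor used here, 3 reads, corresponds to 0.116 CPM in LD_515 and 0.0834 CPM in SD_501. With every gene of the table kept in the fit, the log2 difference was -0.28 for Gpc3 (adjusted p = 0.860; the log2 difference of the means was 0.19 without SD_403, so its sign rests on that mouse, and -0.67 without SD_646 and -0.06 without LD_442) and -1.38 for Gpc6 (adjusted p = 0.363). SD_403 was the highest mouse for both genes, as it was among the standard diet mice for Gpc1. Gpc2, a glypican of the nervous system that is not among the 8, was present at a mean of 0.0817 ± 0.0822 CPM on the Longevity diet and 0.358 ± 0.224 CPM on the standard diet. Gpc5 was not analysed here.

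Sdc4, the syndecan of focal adhesions, had the highest mean CPM of the members on both diets. Sdc4 (chromosome 2 from 164266167 to 164285807, minus strand) had 556 CPM in LD_405, 383 in LD_406, 343 in LD_442, 328 in LD_513 and 375 in LD_515. On the standard diet it had 553 CPM in SD_403, 393 in SD_500, 415 in SD_501, 446 in SD_502 and 500 in SD_646. The highest mouse of each diet was near 555 CPM, and the remaining 4 on the Longevity diet lay below all 5 on the standard diet. The log2 difference was -0.23 (95% CI -0.62 to 0.15, adjusted p = 0.527). It was -0.36 without LD_405 (adjusted p = 0.223) and -0.16 without SD_403 (adjusted p = 0.741).

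Sdc1, the hepatocyte receptor for remnant lipoproteins in mice, is also a surface marker of plasma cells. Sdc1 (chromosome 12 from 8821323 to 8843715, plus strand) had 168 CPM in LD_405, 302 in LD_406, 195 in LD_442, 221 in LD_513 and 191 in LD_515. The standard diet values were 325 CPM in SD_403, 281 in SD_500, 333 in SD_501, 280 in SD_502 and 232 in SD_646. With the exception of LD_406, the mice on the Longevity diet lay below all those on the standard diet. The mean was 216 ± 52.0 CPM on the Longevity diet and 290 ± 40.8 CPM on the standard diet (SD, n = 5 each). The log2 difference was -0.45 (SE 0.19, 95% CI -0.85 to -0.04). The limma p was 0.0321 before and 0.235 after the adjustment over all genes. The exact permutation p, a separate test that was not adjusted, was 0.0476. An unadjusted limma p under 0.05 was found for 17.5% of all genes, so the unadjusted value of Sdc1 (0.0321) is not rare in this comparison. Without LD_406 the log2 difference was -0.58 (adjusted p = 0.183), and without LD_405 it was -0.36 (adjusted p = 0.295).

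The 13 plasma cell and B cell markers found in the table summed to 258 to 336 CPM on the Longevity diet and 348 to 1171 CPM on the standard diet, and none was at 0 in every mouse. Of the 12 tested, 0 changed and 10 had negative differences in log2. Mzb1, a plasma cell chaperone, was at 0.874 ± 1.32 CPM on the Longevity diet and 2.45 ± 0.956 CPM on the standard diet (adjusted p = 0.121, but 0.0126 without LD_405 and 0.00426 with weights per library). By mouse, LD_406 had the highest Sdc1 of its diet (302 CPM) but the lowest marker sum of all mice (258 CPM). SD_403, with the highest marker sum (1171 CPM), had 325 CPM of Sdc1. The part of these cells in the Sdc1 level was not tested.

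Sdc2, known from fibroblasts and other mesenchymal cells, varied least among the members. Sdc2 (chromosome 15 from 32920869 to 33035081, plus strand) had 136 CPM in LD_405, 186 in LD_406, 193 in LD_442, 215 in LD_513 and 189 in LD_515. The standard diet values were 221 CPM in SD_403, 204 in SD_500, 186 in SD_501, 204 in SD_502 and 181 in SD_646. LD_405 was again below all other mice, and the rest were mixed. The log2 difference was -0.13 (95% CI -0.48 to 0.22, adjusted p = 0.717; -0.02 without LD_405), an interval that leaves room for a change between 0.718-fold and 1.17-fold. Low values of LD_405 were not confined to the members. It had the lowest sum of its diet in most pathway lists described below. In the FGF, HGF and VEGF list it had 290 CPM, against 578 to 674 CPM in the rest of its diet. Its lipoprotein clearance sum (58750 CPM) was the highest of all mice. The cause was not tested.

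Sdc3, first known from neurons and present in other cells too, was the syndecan with the widest spread. Sdc3 (chromosome 4 from 130519848 to 130553630, plus strand) had 65.3 CPM in LD_405, 33.0 in LD_406, 97.4 in LD_442, 52.7 in LD_513 and 32.5 in LD_515. The standard diet values were 86.2 CPM in SD_403, 70.6 in SD_500, 59.5 in SD_501, 76.1 in SD_502 and 60.4 in SD_646. LD_442 was the highest of all mice and LD_406 and LD_515 were the lowest. The log2 difference was -0.44 (95% CI -1.05 to 0.17, adjusted p = 0.437), and it was -0.67 without LD_442 (adjusted p = 0.162), -0.28 without LD_406 (adjusted p = 0.720) and -0.28 without LD_515 (adjusted p = 0.671).

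Among the mice on the Longevity diet the sum of 14 Kupffer cell and macrophage markers had the same extremes as Sdc3, with 916 CPM in LD_442, 277 in LD_406 and 288 in LD_515. The other 2 had 835 CPM (LD_405) and 383 CPM (LD_513), and the standard diet mice 532 to 886 CPM. On the standard diet SD_403 was highest for both, but the lowest mice differed. There SD_502 had the lowest marker sum (532 CPM) with 76.1 CPM of Sdc3. SD_501 had a marker sum of 865 CPM with the lowest Sdc3 of its diet (59.5 CPM). Of the 14 markers 0 changed and 13 had negative differences, Mpeg1, a macrophage pore-forming protein, being at 44.4 ± 29.8 CPM on the Longevity diet and 105 ± 26.2 CPM on the standard diet (adjusted p = 0.0685, but 0.0141 without LD_442). The part of macrophages in the Sdc3 level was not tested.

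Markers of the sinusoidal endothelium and of stellate cells and fibroblasts, which also carry syndecans and glypicans, were lower as well. The 16 endothelial markers summed to 210 to 482 CPM on the Longevity diet and 497 to 649 CPM on the standard diet, with 0 of 16 changed and all 16 differences negative. The one with the smallest p was the Fc receptor Fcgr2b (log2 difference -1.06, adjusted p = 0.0506), which 7 of the 17 alternatives called. The 16 stellate cell and fibroblast markers summed to 385 to 643 CPM on the Longevity diet and 623 to 903 CPM on the standard diet, with 1 of 16 fallen. That gene was Pdgfrb, described below. Of 7 tested neutrophil markers 1 fell, the calgranulin gene S100a8 (adjusted p = 0.0456), and 14 of the 17 alternatives did not call it. Neutrophil markers summed to 1.98 to 6.76 CPM on the Longevity diet and 5.48 to 138 CPM on the standard diet.

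Cholangiocyte markers had 0 of 7 changed, mesothelial markers 0 of 3, and T and NK cell markers 0 of 11. The 3 mesothelial genes tested, of 8 listed, were Upk3b, Krt8 and Krt18. On the Longevity diet they averaged 1.14 CPM, 150 CPM and 168 CPM. How far these 3 stand for mesothelial cells was not tested. Of 11 hepatocyte markers 1 fell, the urea cycle enzyme Cps1 (log2 change -0.98, adjusted p = 0.0376), and 8 of the 17 alternatives did not call it. The second by p was albumin, Alb, at 124800 ± 20700 CPM on the Longevity diet and 79130 ± 19770 CPM on the standard diet (log2 difference 0.68, adjusted p = 0.0831, but 0.0202 without SD_502 and 0.0227 with weights per library; the log2 difference was 0 under quantile normalization). The 4 positive and 7 negative differences of the list stood beside a summed level that was higher on the Longevity diet without overlap. Most of that sum was Alb on both diets, so it mainly follows 1 gene. Over all 97 marker genes tested, 0 rose and 3 fell, which is 3.09% beside 1.89% of all genes, and the median log2 change was -0.66 beside -0.11. The part of other cell types in the lower syndecan values was not tested.

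Levels can be compared between genes only per length, here as CPM per kb of the longest GENCODE M21 transcript. Sdc4 was first with 162 ± 37.2 on the Longevity diet and 188 ± 26.5 on the standard diet, in CPM per kb. Sdc1 was second with 68.3 ± 16.5 on the Longevity diet and 91.9 ± 12.9 on the standard diet. Sdc2 followed with 52.1 ± 8.23 on the Longevity diet and 56.5 ± 4.65 on the standard diet. The ranges of these 2 genes overlapped on the Longevity diet (Sdc1 53.1 to 95.7, Sdc2 38.6 to 61.0 CPM per kb) but not on the standard diet (Sdc1 73.5 to 105, Sdc2 51.2 to 62.8 CPM per kb). By this length Sdc3 and Gpc4 came next and did not differ beyond their spread, at 11.3 ± 5.41 and 11.0 ± 4.54 CPM per kb on the Longevity diet and 14.2 ± 2.25 and 14.0 ± 3.51 on the standard diet.

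Gpc1 had 6.85 ± 2.04 CPM per kb on the Longevity diet, within the range of Gpc4 there (4.36 to 16.5), and 0.903 ± 0.686 on the standard diet, below the lowest Gpc4 value (9.97) and reaching into the range of Gpc3 there (up to 1.33). Gpc6 had the lowest mean on both diets. The order depends on which transcript length is used, as the shares below show.

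Of the summed CPM per kb of the 8 members, Gpc1 held 2.22% ± 0.707 on the Longevity diet and 0.235% ± 0.149 on the standard diet (SD, n = 5 each). Sdc4 held 51.5% ± 8.50 on the Longevity diet and 51.2% ± 4.06 on the standard diet, while Sdc1 held 21.98% ± 5.01 on the Longevity diet and 25.2% ± 3.43 on the standard diet. The sum itself was 311 ± 22.4 CPM per kb on the Longevity diet and 366 ± 35.9 on the standard diet. Taking the median in place of the longest transcript length of each gene put the share of Gpc1 at 5.83% on the Longevity diet and 0.613% on the standard diet, and made Sdc1 the largest share, with 36.8% on the Longevity diet and 42.1% on the standard diet, ahead of Sdc4 with 35.6% on the Longevity diet and 35.2% on the standard diet. By that length Sdc3 (12.4% on the Longevity diet and 13.3% on the standard diet) had a larger mean share than Sdc2 (7.67% on the Longevity diet and 7.02% on the standard diet) and lay above Gpc4 in range. Gpc1 (3.64% to 7.79%) then lay above Gpc4 (0.602% to 2.47%) on the Longevity diet. On the standard diet Gpc1 (0.253% to 1.27%) then lay above Gpc3 (at most 0.153%) and touched the range of Gpc4 (from 1.24%). The ratio of the diets within each gene does not depend on the length chosen.

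**Figure D3:**
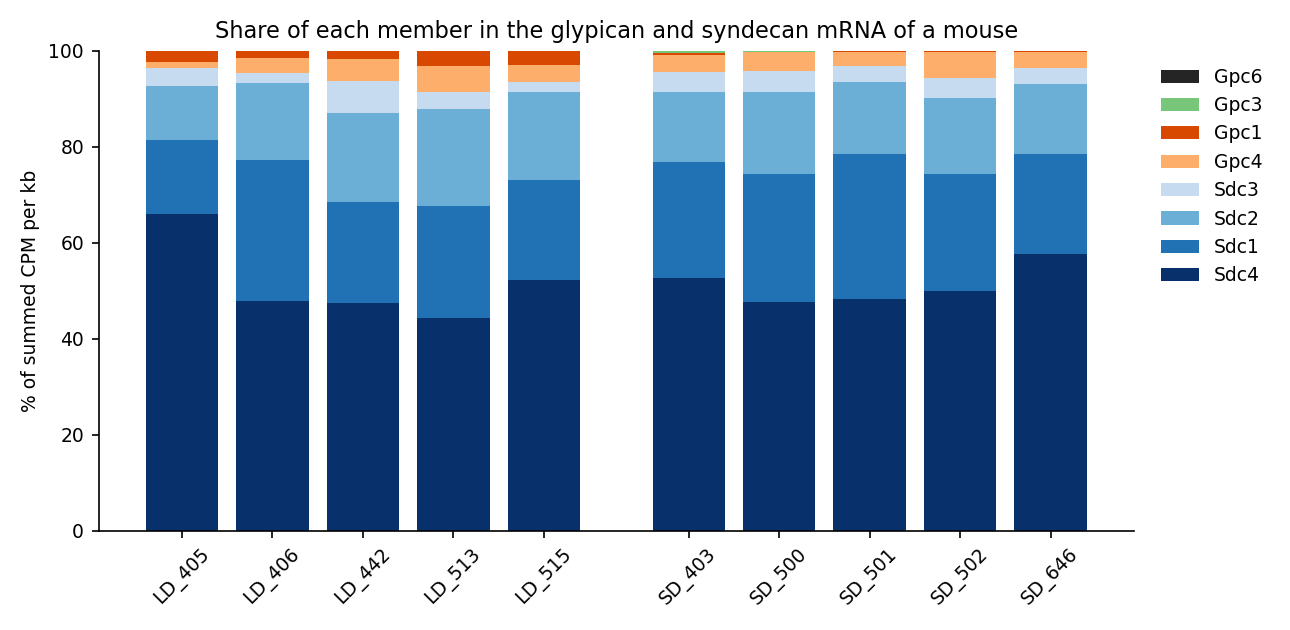
Share of each member in the summed CPM per kb of the 8 members (y axis, percent) in each mouse (x axis), Longevity diet on the left and standard diet on the right. Sdc4 is the largest block in every mouse, at 44.4% to 65.9% on the Longevity diet and 47.7% to 57.6% on the standard diet, and the Gpc1 block is 1.41% to 2.98% on the Longevity diet and at most 0.488% on the standard diet.

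The genes nearest to Gpc1 in pattern were sought by the root mean square difference of log2 values, each gene centred on its mean over the 10 mice. They were Tsku (0.73), Cgref1 (0.75) and Lpin1 (0.93), against 1.68 for the spread of Gpc1 around its own mean. Tsku (chromosome 7 from 97999875 to 98010535) encodes tsukushi, a secreted leucine-rich protein made by the liver, and was at 85.2 ± 32.1 CPM on the Longevity diet and 10.4 ± 6.17 CPM on the standard diet (log2 change 3.10, adjusted p = 0.00360). Cgref1, a calcium-binding protein gene, was at 5.77 ± 2.29 CPM on the Longevity diet and 0.773 ± 0.662 CPM on the standard diet (log2 change 3.02, adjusted p = 0.0131), and it lost its call without LD_406. Lpin1, a phosphatidate phosphatase of lipid synthesis, was at 140 ± 32.0 CPM on the Longevity diet and 42.1 ± 15.2 CPM on the standard diet (log2 change 1.76). Since all 3 were picked as the nearest of 13157 genes, their likeness is a description.

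**Figure D4:**
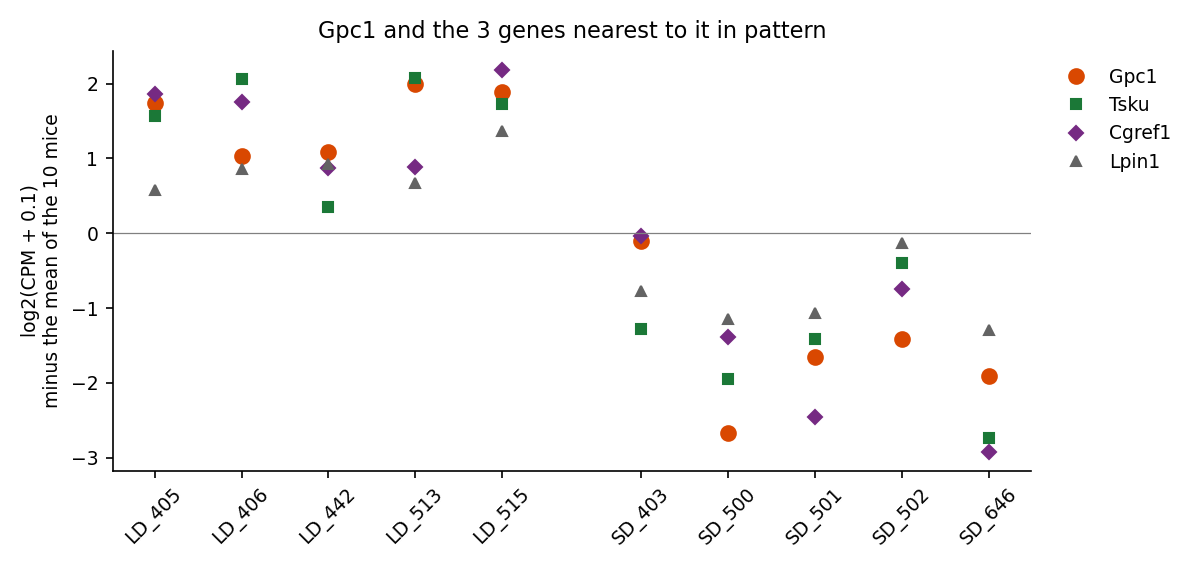
Log2(CPM + 0.1) minus the mean of the 10 mice (y axis) for Gpc1, Tsku, Cgref1 and Lpin1 in each mouse (x axis), Longevity diet on the left. All values on the Longevity diet are above 0 and all on the standard diet are below it, and LD_406 and LD_442 have the lowest Gpc1 points of their diet.

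For Sdc1 the nearest genes were Nrde2 (0.10), H3f3b (0.14) and Osgepl1 (0.15), and for Sdc3 they were Uba7 (0.16), Entpd1 (0.20) and Csf2rb (0.21). The spread around its own mean was 0.33 for Sdc1 and 0.50 for Sdc3. Both were smaller than the 1.68 of Gpc1, so the distances are not comparable between these members. None of the 6 nearest genes of Sdc1 and Sdc3 changed (limma adjusted p = 0.272 to 0.564). Csf2rb and Entpd1 are known from leukocytes among other cells.

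Among the genes that build, modify and break down the chains, 1 fell and 0 rose. Of 14 tested genes that start and extend heparan sulfate 0 changed, with a median log2 change of -0.01. Pxylp1, a phosphatase of the linker sugar, was at 6.00 ± 1.53 CPM on the Longevity diet and 10.7 ± 3.94 CPM on the standard diet (adjusted p = 0.161). Extl1, a sugar transferase of the exostosin family, was at 20.7 ± 9.05 CPM on the Longevity diet and 8.24 ± 5.85 CPM on the standard diet (log2 difference 1.71, adjusted p = 0.178), with a log2 difference of 1.04 without SD_501. Extl2, another of that family, had a log2 difference of -0.62 (adjusted p = 0.274).

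Among 13 tested genes of chain modification 1 fell and 0 rose. Papss2, which makes the sulfate donor used by all sulfotransferases, fell to 121 ± 21.2 CPM on the Longevity diet, against 240 ± 66.3 CPM on the standard diet (log2 change -0.96, SE 0.21, adjusted p = 0.0318). The call was lost without LD_406, LD_442, LD_515, SD_403 or SD_500 (adjusted p = 0.0525 to 0.0960), with log2 changes of -1.06 to -0.82 over all settings. Papss1, the other gene of that family in the list, had a log2 difference of -0.29 and did not pass. The endosulfatase Sulf2, which removes sulfate from finished chains, was at 9.17 ± 4.17 CPM on the Longevity diet and 18.0 ± 1.83 CPM on the standard diet (log2 difference -1.12, adjusted p = 0.108). Ndst1, the main N-sulfation enzyme of liver heparan sulfate, had a log2 difference of -0.38 (adjusted p = 0.516), which was -0.22 without LD_405 and -0.21 without SD_502.

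Of 9 genes of chain breakdown 0 changed. The heparanase gene Hpse was at 5.21 ± 1.54 CPM on the Longevity diet and 9.92 ± 2.22 CPM on the standard diet (adjusted p = 0.0942, 0.0389 with weights per library). Of 15 tested genes of shedding and release 0 changed. Notum, a lipase first described as cutting glypican anchors and now known to act on Wnt proteins, was at 60.5 ± 13.2 CPM on the Longevity diet and 36.7 ± 14.2 CPM on the standard diet (log2 difference 0.79, adjusted p = 0.166). The proteases Mmp2, Furin and Adam17 had log2 differences of -1.28 (adjusted p = 0.198), 0.53 (adjusted p = 0.215, but 0.0383 with weights per library) and -0.58 (adjusted p = 0.271; -0.36 without LD_405).

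Of 9 tested partners of the syndecan tail 0 changed (median -0.23), and Ywhaz had the smallest p (log2 difference -0.23, adjusted p = 0.523). Of 8 other carriers of heparan sulfate 0 changed (median -0.25), and all 8 differences were negative. Among these Nrp1, a co-receptor of VEGF, was at 23.0 ± 8.45 CPM on the Longevity diet and 38.3 ± 19.6 CPM on the standard diet (log2 difference -0.69, adjusted p = 0.275, and -0.43 without SD_502), and Cd44 had a log2 difference of -0.76 (adjusted p = 0.289).

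Genes of pathways in which these proteoglycans are known to act were counted in the same way. The lists were drawn by pathway, so a listed protein need not bind heparan sulfate. Binding of these proteins to the members was not tested. Of 12 lipoprotein clearance genes 0 changed (median 0.21). Apoc3, an inhibitor of remnant clearance, was at 1598 ± 635 CPM on the Longevity diet and 2796 ± 836 CPM on the standard diet (log2 difference -0.82, adjusted p = 0.146), and it passed with weights per library (adjusted p = 0.0103) and without LD_405 (adjusted p = 0.0378). The remnant receptor Lrp1 had a log2 difference of -0.65 (adjusted p = 0.238). Of 19 tested hedgehog and Wnt pathway genes 0 changed (median -0.17), the co-receptor Gas1 having the smallest p (log2 difference -1.03, adjusted p = 0.115, but 0.0481 with weights per library).

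Of 17 ligand and receptor genes of the FGF, HGF and VEGF systems and their like 1 rose and 1 fell. Fgf21, a liver hormone that signals through FGF receptors and beta-klotho, was at 131 ± 55.9 CPM on the Longevity diet and 13.5 ± 6.73 CPM on the standard diet (log2 change 3.29, adjusted p = 0.00356). A link between Fgf21 and Gpc1 was not tested. Pdgfrb, the PDGF receptor of stellate cells, fell to 4.35 ± 1.66 CPM on the Longevity diet, against 10.8 ± 1.97 CPM on the standard diet (log2 change -1.36, adjusted p = 0.0290). Its call was lost without LD_406, LD_515, SD_403, SD_500 or SD_501 (adjusted p = 0.0667 to 0.0868). The median of the 17 was -0.46. Over the 116 genes tested in the 9 pathway lists, 1 rose and 2 fell, which is 2.59% beside 1.89% of all genes.

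**Figure D5:**
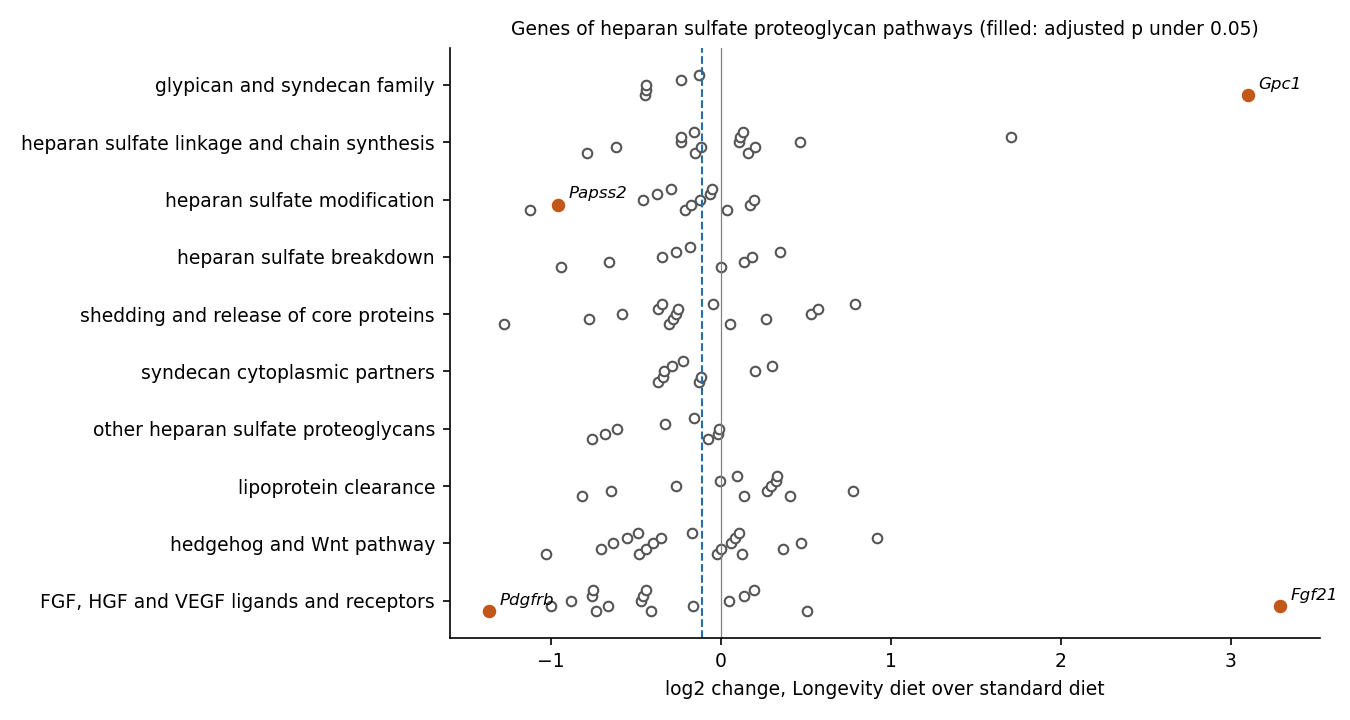
Log2 change, Longevity diet over standard diet (x axis), of each tested gene in the family and in 9 pathway lists (rows); filled points have an adjusted p under 0.05 and the dashed line is the median of all genes (-0.11). Gpc1 and Fgf21 lie above 3, Papss2 and Pdgfrb are the filled points below 0, and the remaining genes are open.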

How the data were processed

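The deposited table holds CPM, per its values: before an added 0.0001 each column sums to 1000000, and the authors' quantifier, annotation release, strand setting and low-count filter are not given in the sources used here. STAR, Partek and mm39 are named in the submitters' processing notes. The 0.0001 was subtracted, and depth (24.7 to 45.7 M reads) was estimated from the step between low values. Of values under 100 estimated reads, 84.6% to 88.0% lay within 0.1 of a whole read, too few to treat them as counts. Ends are 1 below the printed stop, an offset seen in 15 of 15 mitochondrial genes against GENCODE M21.

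Genes averaging 1 CPM or more were compared as log2(CPM + 0.1) with limma 3.58.1 (trend, robust; R 4.3.3), diet as the only term, two-sided, Benjamini-Hochberg over all genes. Fold changes of low genes are understated on this scale. Single members were also compared by an exact permutation test over 252 assignments. The fit was tested on simulated data. Separate animals are named per library, but cage or collection batch is not given. The members and lists were chosen with earlier results of these data known. Named genes are the members, up to 4 genes per list with the smallest p, and the 3 genes nearest in pattern to the 3 members with the smallest p. Papss1 was named in addition, beside Papss2. Alternatives were 2 pseudocounts, 2 filters, 2 scalings, weights per library, each mouse left out, and another transcript length. GENCODE M21 (GRCm38) gave lengths and coding sequence only.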

Additional observations from a re-analysis of the deposited data

Results flagged for a closer look

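In 3 of 18 groups of 5 values 1 mouse lay far from the rest, its gap to the nearest value being over 0.71 of the range; chance flags about 1 in 20 groups. Sdc4 was at 556 CPM in LD_405 beside 383 CPM in the next mouse on the Longevity diet. Gpc1 was at 8.71 CPM in SD_403 beside 3.45 CPM in the next mouse on the standard diet. Gpc3 was at 2.96 CPM in SD_403 beside 0.942 CPM in the next mouse on that diet. SD_403 accounted for 2 of the 3.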

How the results depend on the processing

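The call of Gpc1 and the missed calls of the other 5 tested members were the same in all 17 alternative settings, with their signs. Lowest to highest log2 changes were 2.75 to 3.46 for Gpc1, -0.62 to -0.14 for Gpc4, -0.58 to -0.34 for Sdc1, -0.19 to -0.02 for Sdc2, -0.67 to -0.28 for Sdc3 and -0.36 to -0.12 for Sdc4. The number of changed genes, on which the background percentages rest, moved more. It was 249 as reported, 805 with weights per library and 87 to 380 when 1 mouse was left out, with 380 without LD_405, 87 without LD_406, 106 without LD_515, 96 without SD_403, 107 without SD_500, 148 without SD_501 and 163 without SD_646. The cause was not tested. The other settings gave 179 (without LD_513) to 299 (quantile normalization). No paired analysis was possible because no mouse number occurs on both diets. Counting error limits Gpc3 and Gpc6, where 3 reads correspond to 0.0657 to 0.121 CPM.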
